A study of Mus musculus with 10 samples.

Results

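The genes described here mark the epicardium, the thin sheet of cells that covers the heart, and the mesothelium, the wider family of such linings to which it belongs. They are 9 genes chosen by name as epicardial and mesothelial markers: Wt1, Tbx18, Upk3b, Upk1b, Msln, Lrrn4, Krt19, Efemp1 and Aldh1a2. The choice was made with earlier results of these data known. All 9 were found among the 37583 gene rows of the deposited counts, and all 9 were among the 15364 genes with enough counts to be tested.

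Poly(A)-selected RNA was sequenced from left atria of adult mice in 10 libraries. In the drug experiment, 3 libraries came from animals given ibrutinib (IBR), a kinase inhibitor used against B cell cancers, and 3 from animals given vehicle (CTL). In the genotype experiment, 2 libraries carried the label of a cardiac knockout of Csk (KO), the gene of a kinase that restrains Src family kinases, and 2 came from untreated wild-type animals (WT). Strain, age beyond adulthood, dose, duration and the promoter driving the heart deletion were not stated in the labels, nor whether the KO animals were treated. Nor do the labels tie libraries to separate animals, and p-values then measure only library-to-library spread, which may be technical.

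The epicardium arises from the proepicardium and sends cells into the heart wall, where they become fibroblasts and mural cells. In the adult it is a quiet layer that can take up its embryonic programme again after injury. Wt1 and Tbx18 are transcription factors of that programme, Aldh1a2 makes retinoic acid, Krt19 is a keratin of simple epithelia, and Upk3b, Upk1b, Msln and Lrrn4 encode membrane proteins of mesothelial cells. Efemp1 encodes fibulin-3, a matrix protein that fibroblasts also make, and Tbx18 is also known from mural cells and the sinoatrial node. In whole tissue, fewer cells of a type and less RNA per cell cannot be told apart.

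Promoter windows of 300 bases, running from 250 bases before to 50 after each start site, were taken from RefSeq (GRCm38.p6) for the 5 genes that matched by symbol: Tbx18, Upk3b, Lrrn4, Efemp1 and Aldh1a2. Upk3b and Lrrn4 are shown because their windows hold one of the sequence motifs searched, and Tbx18 because it was the 1 gene that passed the test. Capitals mark the letters GGAATG, the core recognised by TEAD factors, searched on both strands and so printed as such or as their reverse complement. The windows lie at chr5:136038246-136038545 on the plus strand (Upk3b), chr2:132880813-132881112 on the minus strand (Lrrn4) and chr9:87731211-87731510 on the minus strand (Tbx18).
Upk3b: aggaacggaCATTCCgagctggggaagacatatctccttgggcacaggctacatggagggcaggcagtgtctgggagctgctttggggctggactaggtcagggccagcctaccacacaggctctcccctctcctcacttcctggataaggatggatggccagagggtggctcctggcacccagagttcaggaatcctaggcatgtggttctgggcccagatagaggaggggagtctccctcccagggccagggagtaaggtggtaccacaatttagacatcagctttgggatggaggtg
Lrrn4: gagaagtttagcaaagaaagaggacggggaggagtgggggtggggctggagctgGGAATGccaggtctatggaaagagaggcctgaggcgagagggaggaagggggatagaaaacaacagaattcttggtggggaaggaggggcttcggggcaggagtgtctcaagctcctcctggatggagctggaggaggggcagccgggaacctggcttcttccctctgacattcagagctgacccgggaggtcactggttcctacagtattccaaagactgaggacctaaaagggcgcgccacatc
Tbx18: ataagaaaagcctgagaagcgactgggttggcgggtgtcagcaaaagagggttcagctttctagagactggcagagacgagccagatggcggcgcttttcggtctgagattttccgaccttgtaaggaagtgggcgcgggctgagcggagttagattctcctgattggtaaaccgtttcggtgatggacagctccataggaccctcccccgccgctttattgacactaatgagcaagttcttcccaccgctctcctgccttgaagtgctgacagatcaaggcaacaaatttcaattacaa
The Upk3b and Lrrn4 windows each held 1 match, and those of Tbx18, Efemp1 and Aldh1a2 held none. Of all 32851 windows in the table, 14.7% held the same letters, so a match is common. The letters GCGTGGGNG (WT1), AGGTGTGA (T-box factors) and, for the zinc-finger factors of the GATA family, AGATAA were found in none of the 5 windows, against 1.9%, 1.28% and 11.2% of all windows. The windows also differed in CpG pairs. The Upk3b window had 2 CpG pairs, more than 14.1% of all windows, while the Aldh1a2 window had 50, more than 99.1% of them. Those of Tbx18, Lrrn4 and Efemp1 lay between, with 15, 7 and 11 pairs, more than 65.4%, 47.9% and 58.6% of all windows.

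Upk3b and Efemp1 had the highest levels per length in every group, and Tbx18 or Wt1 the lowest. On the RPKM scale, which divides each level by exon length, Upk3b averaged 44.8 ± 8.28 in IBR and 28 ± 11 in CTL (SD, n = 3 each), and Efemp1 averaged 39.9 ± 7.12 in IBR and 20.6 ± 5.98 in CTL. Msln was the third in all groups, at 29.1 ± 3.86 RPKM in IBR and 18.8 ± 8.31 RPKM in CTL. Lrrn4, Aldh1a2, Upk1b and Krt19 followed, and their ranges overlapped from each to the next in both groups, so their order was not resolved. Wt1 lay below them, with means of 3.54 RPKM in IBR and 2.68 RPKM in CTL, and Tbx18 came last with 1.97 and 0.95 RPKM. In KO and WT, Efemp1 stood first, with means of 38.7 and 44.2 RPKM, and Upk3b next, with 22.1 and 37.2 RPKM. Tbx18 was the lowest of the 9 in WT, at a mean of 1.8 RPKM. In KO, its mean of 6.33 RPKM lay above those of Krt19 (5.24 RPKM) and Wt1 (2.88 RPKM), and the KO libraries overlapped between these neighbours. The lowest count behind any of these values was 45 reads, for Tbx18 in CTL2.

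Atrial muscle markers were high in every library. The 6 atrial cardiomyocyte markers summed to between 24900 and 82100 CPM (a count over its TMM-scaled library total) in every library, led by Myh6 and Tnnt2. Myl2, of the ventricular myosin light chain, reached at most 8.62 CPM, and Irx4 0.144 CPM. Myh7 and Myl3 were the highest ventricular markers, at 78.1 to 856 CPM and 5.6 to 173 CPM over the libraries. The 4 ventricular markers summed to at most 889 CPM, in WT35. The summed level of 7 lung epithelium markers was at most 1.79 CPM in the drug experiment and 19.3 CPM in WT338, mostly from Epcam. Of 4 sinoatrial node markers, Shox2 had no count in any library and Isl1 had at most 0.0617 CPM. Csk, the targeted gene, was not lower in the knockout: KO26 and KO337 had 24.7 and 35.5 CPM, against 18.3 and 17.8 CPM for WT35 and WT338 (log2 0.74, adjusted p = 0.0608 in edgeR's test). The Csk level thus did not show the labelled knockout. The deleted exons are not stated, and reads from cells outside a cardiac deletion count too. Leukocyte markers summed to 1010 and 2920 CPM in KO26 and KO337, against 273 and 270 CPM in WT35 and WT338. Their part in the Csk level was not tested. KO below means the libraries labelled KO. KO337 stood apart from KO26 in markers of leukocytes, fibroblasts and cardiomyocytes, and the genotype differences of the 9 genes are given with and without it.

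All 9 genes had higher mean levels under ibrutinib than under vehicle, and none passed the test. The log2 differences of IBR against CTL ran from 0.40 for Wt1 to 1.05 for Tbx18, with a median of 0.74, against a median of -0.03 over all tested genes, of which 44.7% had a positive difference. No gene of the 15364 was called by edgeR's quasi-likelihood test at an adjusted p under 0.05 (0%), while DESeq2 called 2, none of them among the 9. At an unadjusted p under 0.05 there were 848 genes (5.52%), and 4 of the 9. IBR and CTL did not overlap for 2 of the 9, against 13.5% of all tested genes in either direction. IBR was the higher group in both, as in 5.91% of all tested genes. Most of the 9 genes varied together between libraries, Tbx18 least so, and their shared direction does not count as 9 separate observations.

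**Figure D1:**
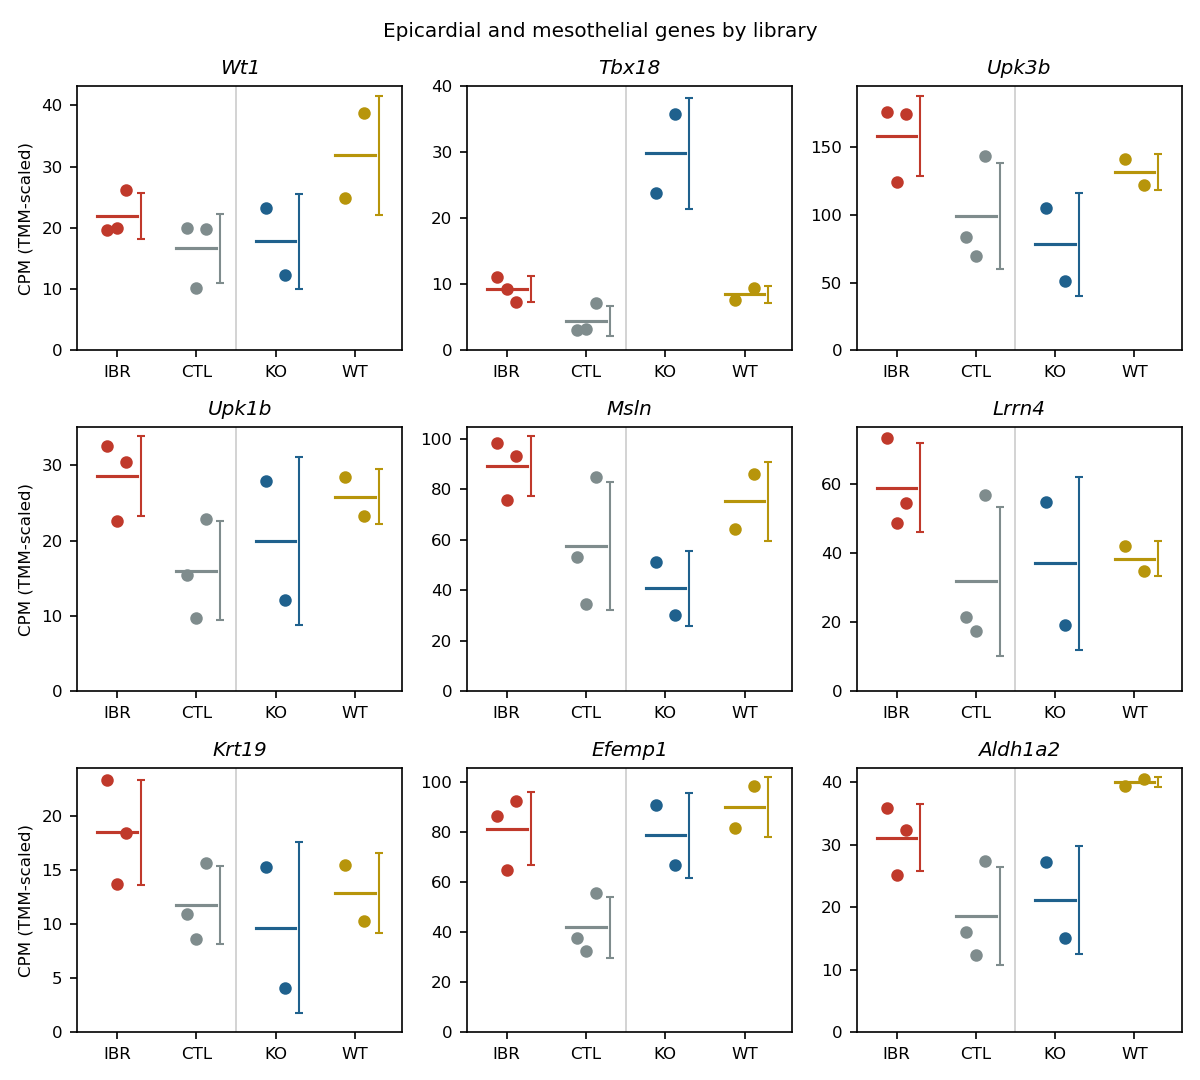
Level of each of the 9 genes in CPM (linear axis from 0) in IBR, CTL, KO and WT libraries; points are libraries, bars are group means and whiskers 1 SD (n = 3, 3, 2 and 2). CTL3 lies above CTL1 and CTL2 in 8 of the 9 panels, and Tbx18 is the panel in which both KO libraries lie above both WT libraries.

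Among the matrix and transcription factor genes, Efemp1 and Tbx18 were the pair without overlap. Efemp1 had 86.6, 65 and 92.5 CPM in IBR1, IBR2 and IBR3, against 37.6, 32.6 and 55.7 CPM in CTL1, CTL2 and CTL3. Every IBR library lay above every CTL library. The log2 difference was 0.95 (1.94-fold, SE 0.22, 95% interval 0.47 to 1.44), with the seventh smallest p of all tested genes (unadjusted p = 0.00138) and an adjusted p of 0.823 in edgeR's test. Tbx18 had 11.2, 9.3 and 7.34 CPM in IBR1, IBR2 and IBR3, against 3.07, 3.24 and 7.12 CPM in CTL1, CTL2 and CTL3. The lowest IBR library was barely above CTL3, the highest CTL library. Its log2 difference was 1.05 (2.07-fold, SE 0.33, adjusted p = 0.823). Wt1, the zinc-finger factor used most widely as an epicardial marker, overlapped between groups. It stood at 19.6, 20 and 26.2 CPM in the IBR libraries and at 19.9, 10.2 and 19.8 CPM in the CTL libraries, and only CTL2 was low (log2 0.40, interval -0.30 to 1.09).

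Among the membrane proteins of the mesothelial surface, Upk3b, Upk1b and Msln ranked the 6 libraries in the same order. Upk3b, a uroplakin of the mesothelium, had 176, 124 and 174 CPM in IBR1, IBR2 and IBR3, against 83.9, 69.3 and 143 CPM in CTL1, CTL2 and CTL3. CTL3 lay above IBR2, so the groups overlapped, and the log2 difference of 0.68 had a 95% interval from -0.02 to 1.38. Upk1b, a tetraspanin that pairs with other uroplakins in the bladder lining, had 32.6, 22.6 and 30.5 CPM in IBR, against 15.4, 9.8 and 22.9 CPM in CTL. Msln, the surface glycoprotein mesothelin, had 98.3, 75.8 and 93.4 CPM in IBR, against 53.3, 34.5 and 84.9 CPM in CTL. In both, IBR2 and CTL3 again overlapped, with log2 differences of 0.83 (interval 0.05 to 1.60) and 0.63 (interval -0.06 to 1.32). Lrrn4, a leucine-rich repeat protein, had CTL3 well above the other CTL libraries, at 73.2, 48.6 and 54.5 CPM in IBR and 21.5, 17.5 and 56.6 CPM in CTL. Its log2 difference of 0.88 had an interval from -0.19 to 1.95, wide enough to hold no difference.

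Krt19 and Aldh1a2 ranked the libraries in that order too. Krt19 had 23.4, 13.7 and 18.5 CPM in IBR1, IBR2 and IBR3, against 11, 8.65 and 15.7 CPM in CTL1, CTL2 and CTL3 (log2 0.65, interval -0.31 to 1.61). Aldh1a2, the retinaldehyde dehydrogenase of the embryonic epicardium, had 35.8, 25.2 and 32.3 CPM in IBR, against 16.1, 12.3 and 27.4 CPM in CTL (log2 0.74, interval 0.07 to 1.41). GENCODE places a pseudogene, Gm48124, across the gene span of Aldh1a2 on the opposite strand. Shared exons were not checked, so whether its reads enter the Aldh1a2 count is not known. CTL2 was the lowest of the 6 libraries for 8 of the 9 genes and CTL1 for Tbx18. Without CTL3 the log2 differences ran from 0.54 for Wt1 to 1.59 for Lrrn4, and without CTL2 from 0.14 for Wt1 to 0.87 for Tbx18, with no call in either case.

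**Figure D2:**
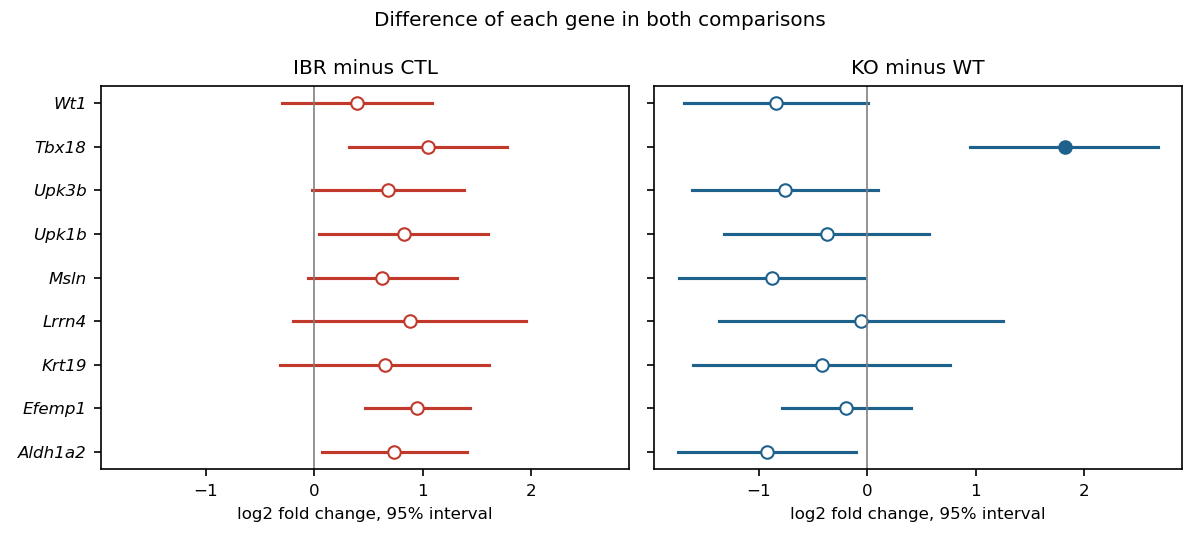
Log2 fold change of each gene with its 95% interval (x axis) for IBR minus CTL and KO minus WT; a filled point has an adjusted p under 0.05. All 9 points lie right of 0 for IBR minus CTL, and Tbx18 at 1.82 is the filled point for KO minus WT.

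Other genes of the epicardium and mesothelium showed the same sign under ibrutinib. Of 20 listed genes 19 were found and 18 tested, and the log2 difference was above 0 in all 18 (median 0.72), without a call. IBR and CTL did not overlap for 10 of the 18, in each case with IBR higher, against 5.91% of all tested genes with IBR higher throughout. The same held for 4 of 6 fibroblast markers, so it was not particular to this list. As with the 9 genes, the shared direction of the 18 does not count as 18 separate observations. This list too was chosen with earlier results of these data known, so its signs are not independent support. Gpm6a, a membrane glycoprotein, had 121, 99.4 and 134 CPM in IBR, against 58.8, 58.4 and 95.3 CPM in CTL (log2 0.74, adjusted p = 0.823). Tcf21, a factor of epicardial cells and fibroblasts, had 13.2, 9.13 and 10.4 CPM in IBR, against 6.77, 6.27 and 7.61 CPM in CTL (log2 0.66). All 18 differences were also positive under every alternative run, each left-out library included.

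Marker levels of other cell types moved beside these genes, and their part in the result was not tested. The 6 fibroblast markers all had positive differences (median 0.74) and summed to between 1430 and 2130 CPM in IBR, against 930 to 1370 CPM in CTL, led by Dcn and Col3a1. The 6 leukocyte markers summed to 194 to 372 CPM in IBR and 176 to 181 CPM in CTL. All 5 endothelial markers summed to 538 to 717 CPM in IBR and 405 to 651 CPM in CTL, highest for Pecam1 and Cdh5. Atrial cardiomyocyte markers summed to 66000 to 70600 CPM in IBR and 70100 to 82100 CPM in CTL, with 6 of 6 differences negative (median -0.25). Of these lists no gene was called. Smooth muscle and pericyte markers had a median difference of 0.01 and overlapping sums of 297 to 387 CPM in IBR and 297 to 345 CPM in CTL, Rgs5 being the highest. For 5 adipocyte markers, led by Fabp4 and Cfd, the sums were 89.9 to 142 CPM in IBR and 119 to 162 CPM in CTL.

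**Figure D3:**
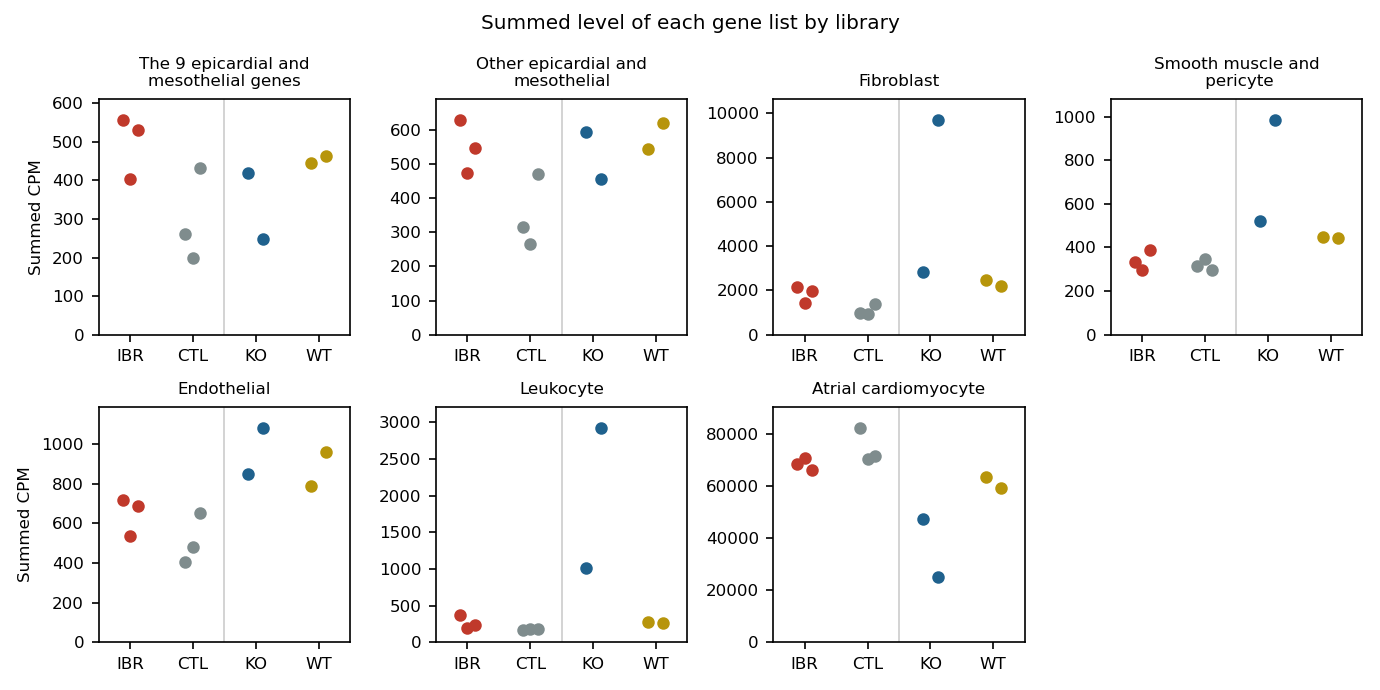
Summed CPM (linear axis from 0) of the 9 genes, of 19 other epicardial and mesothelial genes and of marker lists of other cell types, by library, in IBR, CTL, KO and WT. The sums of the 9 genes run from 404 to 556 CPM in IBR and from 198 to 433 CPM in CTL, and the leukocyte and fibroblast sums are highest in KO337.

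In the genotype experiment Tbx18 rose and the other 8 genes had negative differences that did not pass the test. Of 15364 genes 2.21% were called in KO against WT, and of the 9 genes 1 was. At an unadjusted p under 0.05 there were 3 of the 9, against 25.7% of all tested genes, and KO and WT did not overlap for 5 of the 9, against 53.2%. Both shares lay near those of all genes. The median log2 difference of the 9 was -0.42, against 0.01 over all tested genes.

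Tbx18 had 23.9 and 35.8 CPM in KO26 and KO337, against 7.57 and 9.43 CPM in WT35 and WT338. Both libraries labelled KO lay above every other library of the series. The log2 difference was 1.82 (3.52-fold, SE 0.39, 95% interval 0.95 to 2.68, adjusted p = 0.0459 in edgeR's quasi-likelihood test). The call was lost without any of KO337, WT35 or WT338 and when KO and WT were fitted alone, with adjusted p of 0.178, 0.237, 0.178 and 0.305 and log2 differences of 1.48 to 1.98. Without KO26 it was 2.08 and was called. GENCODE annotates D030062O11Rik across Tbx18 on the opposite strand, by gene span, and the counting ignored strand. Shared exons were not checked. Reads of both may therefore be mixed or set aside as ambiguous, depending on the annotation used.

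Levels of the sinoatrial node and mural genes stood beside Tbx18 as follows. Hcn4, a pacemaker channel, had 1.51 and 0.362 CPM in KO26 and KO337, against 2.57 and 3.21 CPM in WT35 and WT338 (log2 -1.65, adjusted p = 0.143). Smooth muscle and pericyte markers had positive differences for 6 of 6 genes (median 1.26, none called). They summed to 519 and 983 CPM in KO26 and KO337, against 447 and 444 CPM in WT35 and WT338. KO and WT did not overlap for 3 of the 6, against 53.2% of all tested genes. Tagln, with the largest difference of the list, had 11.2 CPM in KO26 and 153 CPM in KO337. It had 13.1 CPM in WT35 and 8.42 CPM in WT338. Pdgfrb, the receptor that marks mural cells and fibroblasts, was at 205 CPM in KO337 and 70.5 CPM in KO26, against 40.5 CPM in WT35 and 47.3 CPM in WT338. Whether mural cells carry the Tbx18 difference was not tested. Of the 6 other T-box genes listed, all were tested and none was called, with 3 positive and 3 negative differences. Tbx1 and Tbx2 had the smallest p, with log2 differences of 2.36 and 0.80 at adjusted p of 0.112 and 0.121. In IBR against CTL, Tbx3 and Tbx5 had log2 differences of 0.43 and -0.11.

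The other 8 genes were low mainly in KO337. Wt1 had 23.3 and 12.3 CPM in KO26 and KO337, against 24.9 and 38.7 CPM in WT35 and WT338 (log2 -0.84, interval -1.69 to 0.01, adjusted p = 0.2). Aldh1a2 had 27.2 and 15.1 CPM in KO, against 39.4 and 40.5 CPM in WT (log2 -0.92, interval -1.74 to -0.10, adjusted p = 0.155). In both genes each KO library lay below each WT library, with KO26 nearer to WT. Msln had 51.3 and 30.4 CPM in KO26 and KO337, against 64.3 and 86.2 CPM in WT (log2 -0.88, adjusted p = 0.182). Upk3b had 105 and 51.2 CPM in KO, against 141 and 122 CPM in WT (log2 -0.76, adjusted p = 0.242). These groups did not overlap either. Without KO337 the log2 differences shrank to -0.46 for Wt1, -0.57 for Aldh1a2, -0.57 for Msln and -0.35 for Upk3b, none of them called.

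For 4 genes the KO libraries fell on both sides of a WT library. Upk1b had 27.9 and 12.1 CPM in KO26 and KO337, against 28.4 and 23.3 CPM in WT (log2 -0.37, adjusted p = 0.609). Lrrn4 had 54.6 and 19.3 CPM in KO, against 41.9 and 34.7 CPM in WT (log2 -0.06, interval -1.36 to 1.25). Krt19 had 15.3 and 4.12 CPM in KO, against 15.5 and 10.3 CPM in WT (log2 -0.42). KO26 was above or within the WT values in these 3 and KO337 below them. Efemp1 had 90.7 and 66.8 CPM in KO, against 81.5 and 98.5 CPM in WT (log2 -0.19, interval -0.78 to 0.40), with the narrowest interval of the 9. Without KO337, 5 genes rather than 8 had a negative difference, of which Efemp1 was at -0.00, and Upk1b, Lrrn4 and Krt19 stood at 0.09, 0.49 and 0.23. Without KO26, leaving KO337 as the sole KO library and assuming that it varied like the other groups, 5 genes were called: Tbx18 as higher, and Wt1, Upk3b, Krt19 and Aldh1a2 as lower with log2 differences of -1.37, -1.36, -1.65 and -1.40. In that fit 24.8% of all tested genes were called.

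**Figure D4:**
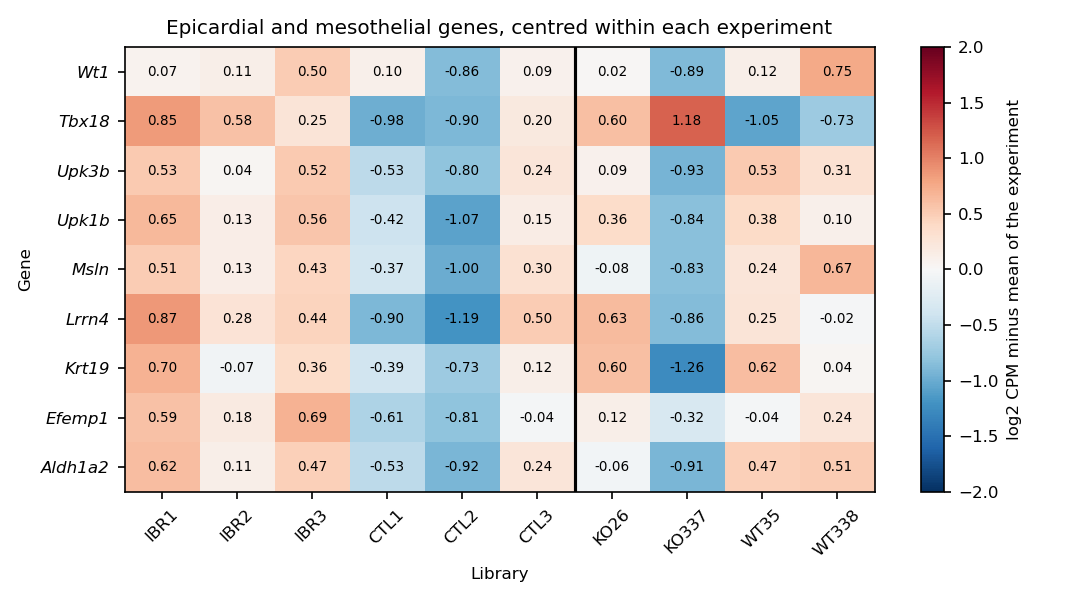
Log2 CPM of each gene (rows) in each library (columns), minus the gene's mean over the libraries of its experiment; red is above and blue below that mean, and the black line parts the drug from the genotype experiment. KO337 is the lowest of its experiment for 8 genes and the highest for Tbx18 (1.18), and CTL2 is the lowest of its experiment for 8 genes.

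KO337 also stood apart in markers of other cells, whose part in the low values there was not tested. Leukocyte markers summed to 1010 and 2920 CPM in KO26 and KO337, against 273 and 270 CPM in WT, led by Lyz2 and Cd74, and 3 of these 6 genes were called higher. These calls were not kept without KO337, WT35 or WT338. The median log2 difference of the 6 was 1.25 without KO337 and 3.17 without KO26, where KO337 was the sole KO library. Fibroblast markers summed to 2840 and 9680 CPM in KO26 and KO337, against 2460 and 2190 CPM in WT35 and WT338. For atrial cardiomyocyte markers the sums were 47300 and 24900 CPM in KO26 and KO337, against 63400 and 59300 CPM in WT35 and WT338. Of the 18 other epicardial and mesothelial genes, 12 had negative and 6 positive differences, with a median of -0.29 and no call. Without KO337 the split was 10 negative and 8 positive with a median of -0.05, and without WT338 it was 9 and 9 with a median of 0.05. Without KO26, which leaves KO337 as the sole KO library, 13 were negative and 5 positive with a median of -0.70. Tcf21 and Bnc2 had the smallest p and were among the positive ones. Tcf21 was at 20.1 CPM in KO337 and 16.3 CPM in KO26, against 7.52 CPM in WT35 and 10.6 CPM in WT338 (log2 1.01, adjusted p = 0.06). Bnc2, a zinc-finger factor, had 5.98 and 11.5 CPM in KO, against 2.28 and 4.4 CPM in WT (log2 1.39, adjusted p = 0.0898).

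Families and pathways to which single members belong were listed separately. Of 17 retinoic acid pathway genes 13 were tested, and none was called in either comparison. In IBR against CTL their median log2 difference was 0.08, with Aldh1a1 and Cyp26b1 at the smallest p (log2 0.90 and 1.61). Cyp26b1, which degrades retinoic acid, had 11 CPM in IBR1 and at most 2.42 CPM in any other library of that experiment. In KO against WT their median was 0.27, and the receptor gene Rarg and the reductase gene Dhrs3 had log2 differences of 0.95 and 0.97 at adjusted p of 0.0816 and 0.089. Of the 6 other fibulins, Fbln7 was called higher in KO against WT, at 4.35 and 25.9 CPM in KO26 and KO337, against 1.29 and 1.38 CPM in WT (log2 3.50, adjusted p = 0.0399). Its call was lost without KO337 (log2 1.69, adjusted p = 0.124), without WT35 (adjusted p = 0.211) and without WT338 (adjusted p = 0.179). Fbln5 followed with a log2 difference of 1.56, not called. In IBR against CTL, Fbln5 and Fbln2 had log2 differences of 0.83 and 0.52.

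Other uroplakins were nearly silent. Their summed level was at most 0.569 CPM in the drug experiment and 0.755 CPM in the genotype experiment, and Upk1a alone had enough counts to be tested (log2 -0.50 in IBR against CTL and 0.72 in KO against WT). Of 9 listed genes of the epithelial to mesenchymal transition, by which epicardial cells enter the heart wall, 8 were tested and none was called. In KO against WT 7 of the 8 were positive (median 1.28), with Zeb2 and Twist1 nearest to a call at log2 differences of 0.64 and 1.54 and adjusted p of 0.0624 and 0.0719. The summed level of the list was 1040 CPM in KO26, between both WT libraries, and 3470 CPM in KO337, against 925 CPM in WT35 and 1160 CPM in WT338. Without KO337, 5 of the 8 were positive and the median was 0.18. Without KO26, which leaves KO337 as the sole KO library, 7 were positive and the median was 1.91. Fibroblast markers, given above, were also highest in KO337, and their part in these values was not tested. In IBR against CTL, Twist1 and Snai2 had log2 differences of 0.87 and 0.85.

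Set against Upk3b within each library, Msln, Krt19, Aldh1a2 and Upk1b varied least and Tbx18 most. Per 100 CPM of Upk3b there were 45.6 to 70.7 CPM of Msln over all 10 libraries, 17.7 to 33.2 CPM of Aldh1a2, 14.1 to 26.7 CPM of Upk1b and 8.05 to 14.7 CPM of Krt19. For these 4 genes the highest ratio was 1.55 to 1.89 times the lowest. Lrrn4 ranged from 25.3 to 52.2 CPM (2.07 times), Wt1 from 11.1 to 31.8 CPM (2.85 times) and Efemp1 from 39 to 131 CPM (3.35 times), while the factor for Tbx18 was 19.1. Tbx18 had 22.9 and 70 CPM per 100 CPM of Upk3b in KO26 and KO337, against 5.37 and 7.74 CPM in WT35 and WT338. In the drug experiment its ratio was 6.39, 7.48 and 4.21 in IBR, against 3.66, 4.68 and 4.98 in CTL, where both groups overlapped. Efemp1 was also less tied to Upk3b, at 86.7 and 131 CPM per 100 CPM in KO26 and KO337, against 57.8 and 80.8 CPM in WT. For Wt1 the ratio was 22.3 and 24.1 in KO, against 17.6 and 31.8 in WT.

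The pattern of Upk3b, Upk1b, Msln and Lrrn4 was averaged on the log2 scale, centred within each experiment, and compared over the 10 libraries with 11842 tested genes that were not members, had an average log2 CPM of at least 1 and bore no clone name. Among these, the smallest root mean square differences from it, in log2 units, were those of Dpp4 (0.0778), Igfbp6 (0.166), Abca6 (0.171), Cldn15 (0.174) and Pkhd1l1 (0.175). The averaged pattern itself departed from 0 by 0.557 on the same measure. Dpp4, a surface peptidase, had 42.7, 27.1 and 40.1 CPM in IBR and 19.4, 13 and 30.5 CPM in CTL, and 43.5 and 17.8 CPM in KO and 42.9 and 41.7 CPM in WT. Cldn15, a claudin, and Pkhd1l1 were also on the list of other mesothelial genes. Of the members outside the pattern, Aldh1a2 lay nearest (0.137) and Tbx18 farthest (0.88).

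The difference between both effects was tested in the same fit. It was negative for 8 of the 9 genes, with KO against WT below IBR against CTL, and 0.77 for Tbx18. None was called, against 0.026% of all tested genes, and 5 of the 9 had an unadjusted p under 0.05, against 9.79%. The most negative were Aldh1a2 at -1.66 (interval -2.72 to -0.60, adjusted p = 0.364), Msln at -1.51 (adjusted p = 0.401) and Upk3b at -1.44 (adjusted p = 0.424). Without KO26, 5 of the 9 were called, against 9.82% of all tested genes in that fit.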

How the data were processed

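The deposited values were raw read counts per gene, 1 file per library; STAR, HTSeq and edgeR are named with build mm9 in the submitters' processing notes, and the naming of the deposited files says that counting ignored strand, though per the labels the kit keeps it. Versions and annotation were not stated. Reads in the 5 unassigned rows were left out; those in no feature made up 13.5% to 19.9% of records, and totals on genes ran from 14907331 to 19960947.

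Symbols matched 87.4% of gene IDs. Genes were kept by filterByExpr (minimum count 10, total 15) and fitted across all genes with edgeR 4.0.16 (limma 3.58.1, R 4.3.3): TMM scaling, a mean per group over all 10 libraries, robust quasi-likelihood tests, Benjamini-Hochberg adjustment over all genes tested, and a call at 0.05. Each SE was taken as the size of the log2 difference divided by the root of its F value. RPKM used GENCODE vM21 exon lengths, which are of another build. DESeq2 1.42.0 was an alternative. Replicate numbers shared by IBR and CTL were not treated as pairs. Correlations of deviations were 0.02, 0.16 and 0.03 for libraries of the same number and -0.20 to 0.18 for the others. With so few libraries they cannot settle whether the libraries were paired.

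Named genes were the 9 members, called genes and the 2 with the smallest p per listed family and comparison, the 2 highest per marker list, and the 5 nearest to the averaged pattern; further markers were named after their values were seen. The members and lists were chosen with earlier results of these data known. A marker gene that the naming rule covers is not reported here.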

Additional observations from a re-analysis of the deposited data

How the results depend on the processing

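In IBR against CTL all 9 genes kept a positive difference without a call under the 12 alternatives run, and so did the sign of the 18 other epicardial genes. With the replicate number as a block in a fit of IBR and CTL alone, 2 genes were called higher rather than 0, and no member. Genes at an unadjusted p under 0.05 in edgeR's test numbered 1803 with the block and 1384 without it in that fit. The lowest adjusted p of a member with the block was 0.0611, for Efemp1. DESeq2 and the fit without a filter each called 2 genes, all lower. In KO against WT, 67 of 81 values kept direction and side of the threshold. The count of 339 called genes became 1146 without a filter, 1858 with DESeq2, 0 with KO and WT fitted alone, where no member was called, and 14 to 3811 with 1 library left out; members called then ran from 0 to 5 and negative members from 5 to 8. With library totals alone, which moved the median of all genes to 0.23, the calls split into 295 higher and 66 lower rather than 201 and 138, and Lrrn4 and Efemp1 turned to 0.15 and 0.03. With a library left out, Lrrn4 ran from -0.99 to 0.49, Upk1b from -1.09 to 0.09 and Krt19 from -1.65 to 0.23; the cause was not tested. For the difference of effects, 4 called genes became 0 with library totals, 84 without a filter, 143 with DESeq2 and 0 to 1509 with a library left out, with 0 to 5 members called. The counts over members and over other epicardial genes, and the values of other lists and of Fbln7 with a library left out, were added after seeing the data. No paired analysis was possible for KO against WT because those libraries share no number.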
